A study of Mus musculus with 2 samples.

Results

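The cells described here are the sorted mouse alveolar macrophages (AMs) whose transcripts were richest in heat shock and immediate early genes. They were chosen by a score, the share of the unique molecular identifiers (UMIs, counted transcripts) of a cell that came from *Hspa1a*, *Hspa1b*, *Hsp90aa1*, *Jun* and *Egr1* together. Barcodes with at least 500 detected genes and at most 10% mitochondrial UMIs were kept, and the highest 10% of the kept cells of both libraries pooled were taken as members. This gave 1385 members of 13851 kept cells. Because the score chose them, they are the upper end of a range and not a separate cell type, and the levels of the 5 score genes are given below as a description only.

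Both libraries came from lungs of C57BL/6 mice aged 10 weeks, prepared by droplet 3′ single-cell RNA-Seq of AMs isolated by cell sorting. The study gates AMs as CD45+ cells with strong autofluorescence and, within them, by surface Siglec-F. In tumor-bearing lungs this sets them apart from Siglec-F-negative tumor-associated macrophages, which are autofluorescent too. Its single-cell methods do not repeat the gate. The control library was made from vehicle-injected mice of the orthotopic model, and the tumor library from mice with Lewis lung carcinoma cells (LLC, a mouse lung cancer line) inoculated into the left lung. The number of mice behind each library is not given in the sources used here. The study's methods assigned barcodes to samples by hashtag reads, which were not used here, and each count table was taken whole as the library of its label. As each condition had a single library, no test was run and the tumor condition cannot be told apart from the library batch. Levels are UMIs per 1000000 UMIs summed over cells (CPM), and the ranges in parentheses are exact 95% intervals that cover counting error only, not variation among cells or animals.

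Heat shock proteins are chaperones that hold or refold damaged proteins, and their genes are switched on within minutes by heat shock factor 1 bound to heat shock elements. *Jun* and *Egr1* are immediate early genes, which growth factor, toll-like receptor and stress kinase signals switch on from existing transcription factors before any new protein is made. AMs live in the airspace, clear surfactant lipid and dust, and meet such signals often. Both groups of genes are also known to respond to the making of single-cell suspensions, and the part of cell preparation was not tested.

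Of the 5 score genes, RefSeq promoter entries (assembly GRCm38.p6, 250 bases before the start) were matched for *Hspa1a*, *Hspa1b* and *Jun*. The stretches below are shown because each holds a pair of inverted heat shock element units, before 3 score genes and before 2 chaperone genes that the score did not use. Capitals mark GAANNTTC or TTCNNGAA, searched on both strands, and each stretch reads 5′ to 3′ on the strand of the gene.
Hspa1a: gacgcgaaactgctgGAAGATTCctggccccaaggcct
Hspa1b: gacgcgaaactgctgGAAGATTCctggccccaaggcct
Jun: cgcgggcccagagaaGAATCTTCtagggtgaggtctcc
Hsph1: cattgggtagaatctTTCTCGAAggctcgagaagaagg
Dnaja1: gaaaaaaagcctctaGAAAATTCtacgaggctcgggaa
They lie at chr17:34972238-34972275 and chr17:34959320-34959357 (*Hspa1a* and *Hspa1b*, minus strand), chr4:95052328-95052365 (*Jun*, minus strand), chr5:149636347-149636384 (*Hsph1*, minus strand) and chr4:40722329-40722366 (*Dnaja1*, plus strand). The stretches of *Hspa1a* and *Hspa1b* were identical, as were 247 of the 250 bases before the starts of these neighbouring genes. The pair of units was present in 14.6% of 27018 genes with an entry, so a match by itself marks no gene as a heat shock gene. It was also present in 3 of 9 matched genes that were lower in members in both libraries (33.3%). The longer element, in which 1 more inverted unit follows the pair after 2 bases, was found in 0.514% of all genes with an entry, in 0 of the 3 score genes and in 0 of the 45 matched genes that were higher in both libraries.

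A second motif, the cyclic AMP response element TGACGTCA, is shown because it was carried by 6 of the 45 matched genes that were higher in members in both libraries (13.3%), against 1.77% of all genes with an entry. The 6 genes were *Areg*, *Btg2*, *Dusp1*, *Nfkbid*, *Ppp1r15a* and *Slc25a25*. The heat shock pair was present in the same share of these 45 genes, 13.3%, which is near its share of all genes. Other motifs were searched too, and the cyclic AMP response element was picked for having the largest excess, so its share is a description. The AP-1 site TGANTCA was in 4.44% of the 45 genes against 7.82% of all genes. The CArG box was in 4.44% against 1.62%, and the TATA motif in 17.8% against 14.3%. Capitals mark TGACGTCA in 4 of the 6 genes that carried it.
Btg2: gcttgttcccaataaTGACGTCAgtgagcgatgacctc
Dusp1: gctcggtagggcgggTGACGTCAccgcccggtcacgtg
Ppp1r15a: accccgcctctccggTGACGTCAgcac
Nfkbid: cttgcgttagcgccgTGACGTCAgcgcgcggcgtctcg
They lie at chr1:134079299-134079336 (*Btg2*, minus strand), chr17:26508593-26508630 (*Dusp1*, minus strand), chr7:45526269-45526295 (*Ppp1r15a*, minus strand) and chr7:30422340-30422377 (*Nfkbid*, plus strand). The matches are a description of letters and say nothing of binding in these cells.

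The members were more frequent in the tumor library. They made up 380 of 6185 kept control cells, 6.14% (5.56 to 6.77), and 1005 of 7666 kept tumor cells, 13.1% (12.4 to 13.9), a ratio of 2.13 (1.89 to 2.41). With both libraries given equal weight, 68.1% (65.5 to 70.7) of the members were tumor cells. The libraries parted in the upper part of the score. The median score was 7.54 UMIs per 10000 in control and 6.69 in tumor cells, whereas the 90th percentiles were 24.8 and 46.1 and the 99th percentiles 88.4 and 145.3.

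**Figure D1:**
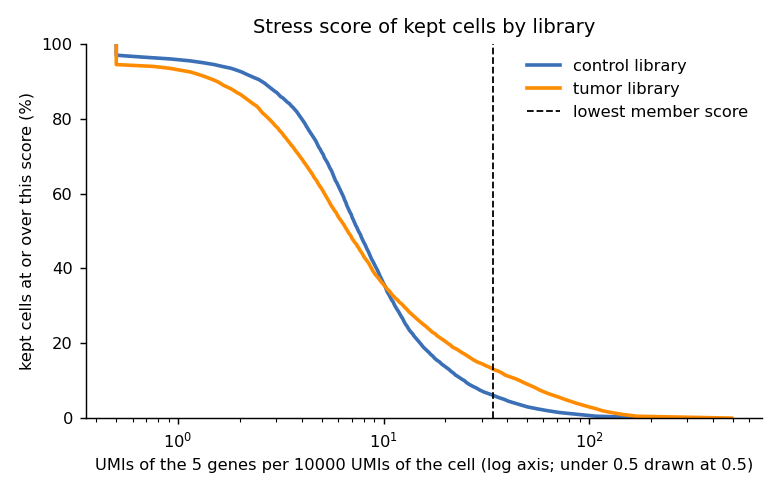
Share of kept cells (%) at or over each score, with the score on a log axis in UMIs of the 5 genes per 10000 UMIs of the cell, for the control (blue) and tumor (orange) library. The curves cross, with medians of 7.54 and 6.69, and at the dashed line, the lowest member score of 34.1, 6.14% of control and 13.1% of tumor cells remain.

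The score had no gap at this limit. The lowest member stood at 34.1352 and the highest other cell at 34.1339 per 10000, and 135 members and 139 other cells lay within 10% of the limit on either side. The median member stood at 58.8, the highest at 494.9, and 560 members were at or over 2-fold the limit. Sequencing depth was similar, as members and other cells had medians of 10368 and 10370 UMIs in the control library and of 8136 and 8298 in the tumor library. Median mitochondrial shares were 2.71% and 2.69% in control, and 2.15% and 2.52% in tumor cells. After every cell was thinned to 3800 UMIs, with 595 control and 729 tumor cells too shallow and left out, the shares were 6.24% (5.62 to 6.91) and 13.0% (12.3 to 13.9), and 90.1% of the 1253 cells then chosen were members at full depth. The libraries shared 17 barcodes among kept cells, 1 of them among members.

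The members expressed the markers of AMs. None of 12 AM marker genes differed by 1.5-fold in both libraries. This is near the shares of all genes compared below, 0.976% higher and 0.231% lower in both. In the tumor library alone 1 of the 12, *Marco*, was at least 1.5-fold higher in members, with its levels given below. The summed level of the 12 was 19280 CPM in control members against 18770 CPM in the other control cells. In the tumor library it was 18010 against 15830 CPM. *Chil3*, a secreted chitinase-like protein of AMs, stood at 11293 and 11680 CPM in the control library and at 11010 and 10451 CPM in the tumor library. *Pparg*, the transcription factor that AMs need to mature, stood at 145 and 126 CPM in control, and at 144 and 115 CPM in tumor members and other cells. Cells with at least 3 markers and 5 UMIs of another cell type numbered 107 in control and 136 in tumor, of which 6 and 13 were members. Summed markers of monocytes or tumor-associated macrophages (8 genes) were higher in control members, at 27.2 CPM against 17.4 CPM in the other control cells, and lower in tumor members, at 49.5 CPM against 110 CPM in the other tumor cells. With the cells of other types left out and the members chosen again, the tumor share of members under equal weight was 68.13%. Then 56 genes were higher and 13 lower in members in both libraries. Cells with fewer such markers stayed in, and their part in the results was not tested. *Klf2*, the 1 gene given as a marker of these cells that the score does not use, was higher in members of both libraries.

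The score genes differed in how far they set members apart. *Hspa1a*, a stress-inducible HSP70, stood at 1124 CPM in control members and 45.1 CPM in the other control cells, and at 1549 and 81.4 CPM in the tumor library. Its neighbour *Hspa1b* stood at 1117 and 40.7 CPM in control and at 1991 and 77.6 CPM in tumor. *Hsp90aa1*, the inducible cytosolic HSP90, had a high level outside the members too, with 1567 and 491 CPM in control and 1692 and 371 CPM in tumor. *Jun*, a subunit of the transcription factor AP-1, stood at 1647 and 245 CPM in control and at 1630 and 207 CPM in tumor. *Egr1*, a zinc finger transcription factor, stood at 605 and 79.2 CPM in control and at 615 and 72.2 CPM in tumor. *Hspa1a* and *Hspa1b* share 50.6% and 52.0% of their possible 91-base reads with another gene over the whole transcript, but none of 410 in the last 500 bases that 3′ libraries mostly read.

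Each score gene was also examined in cells chosen by the other 4 alone, so that the gene did not choose its own cells. The log2 ratio of chosen over other cells was then 4.27 in control and 3.82 in tumor for *Hspa1a*, and 4.32 and 4.11 for *Hspa1b*. It was 1.499 and 2.001 for *Hsp90aa1*, 2.40 and 2.71 for *Jun*, and 2.52 and 2.81 for *Egr1*. All 10 values stayed below those in the members themselves, which ran from 1.67 to 4.78. Every score gene was thus high in cells picked without it, in both libraries. The 5 genes varied together across all kept cells, with Spearman correlations from 0.2 (*Hsp90aa1* with *Egr1*) to 0.61 (*Hspa1a* with *Hspa1b*). The ratios therefore describe how these genes vary together and are no independent support for the group.

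**Figure D2:**
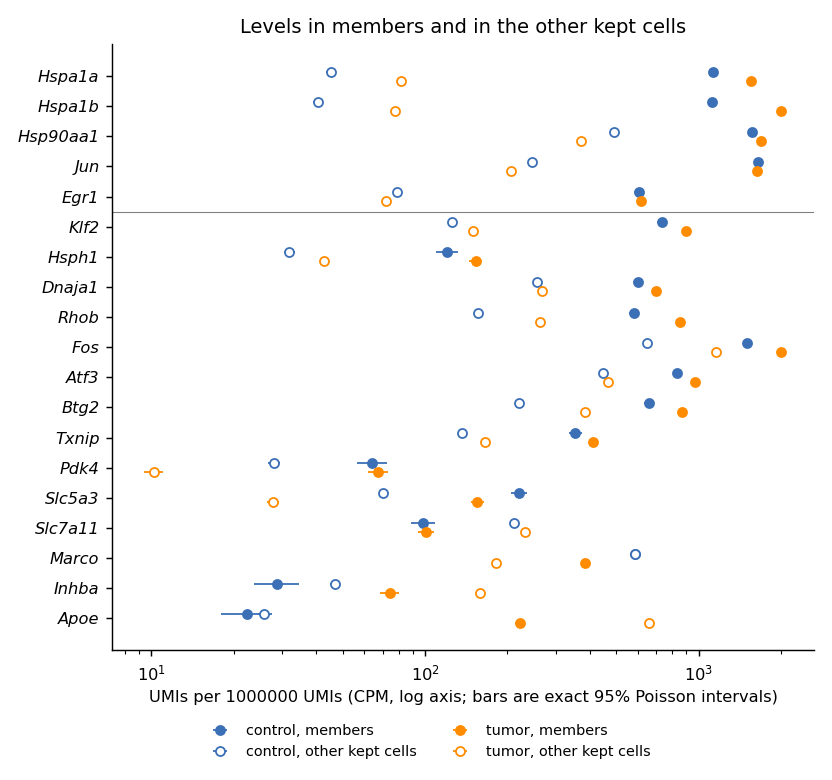
Levels in CPM (log axis) of 19 genes in members (filled) and other kept cells (open) of the control (blue) and tumor (orange) library, with exact 95% Poisson intervals of the summed counts as bars. The 5 score genes stand above the grey line; below it *Klf2* is at 732 against 125 CPM in control and at 902 against 150 CPM in tumor, while *Slc7a11*, *Inhba* and *Apoe* in tumor members stand to the left of the other tumor cells.

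Beyond the score genes, 5638 genes with at least 20 CPM in members or in other cells of each library were compared. Members were at least 1.5-fold higher for 79 genes in the control library (1.4% of those compared) and for 144 in the tumor library (2.55%), and 55 genes (0.976%) were higher in both. They were lower for 28 genes in control (0.497%) and 83 in tumor (1.47%), with 13 genes (0.231%) lower in both. The genes higher in both made up 69.6% of the control calls and 38.2% of the tumor calls. The median log2 ratio over all compared genes was −0.04 in control and 0.01 in tumor.

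*Klf2* (ENSMUSG00000055148, chr8:72319033-72321656, plus strand, in the GENCODE annotation of GRCm38), a transcription factor that is induced by shear and stress and restrains inflammatory genes in macrophages, had the highest ratio of any compared gene in control. Its log2 ratio was 2.55 (2.49 to 2.61) in control and 2.59 (2.54 to 2.63) in tumor. The median cell had 5.40 *Klf2* UMIs per 10000 among control members and 7.23 among tumor members, against 0 among the other cells of either library. *Rhob*, a small GTPase that is an immediate early gene, stood at 579 against 156 CPM in control and at 850 against 263 CPM in tumor, log2 ratios of 1.89 (1.82 to 1.96) and 1.70 (1.65 to 1.74). *Btg2*, an antiproliferative early gene, stood at 655 against 220 CPM and at 872 against 384 CPM. Members were above the other cells of their own library for each of these genes.

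Early response genes other than *Egr1* and AP-1 were the list with most calls, with 9 of 24 compared genes higher in both libraries against the 0.976% background. These were *Klf2*, *Rhob*, *Btg2*, *Ier2*, *Egr2*, *Klf6*, *Dusp1*, *Dusp6* and *Zfp36l1*, none was lower in either library, and the list medians were 0.70 in control and 0.57 in tumor on the log2 scale. *Ier2*, a nuclear immediate early protein, stood at 370 against 144 CPM in control and at 526 against 223 CPM in tumor. *Dusp1*, a phosphatase that switches off stress kinases, stood at 782 against 431 CPM and at 1020 against 560 CPM. Not every early gene followed. *Sgk1*, a kinase, stood at 1058 against 811.8 CPM in control and at 1599 against 1361 CPM in tumor, and *Mcl1*, a survival factor, had log2 ratios of 0.09 and −0.06. *Ier3*, an early gene of the NF-kB path, had log2 ratios of 0.70 in control and −0.35 in tumor. Its tumor ratio was 0.07 (−0.0085 to 0.15) when tumor cells with at least 4 UMIs of *Apoe* and *S100a6* per 10000 were left out.

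Among 10 compared AP-1 genes besides *Jun*, *Fos*, *Jund* and *Atf3* were higher in both libraries. *Fos*, the main partner of *Jun*, stood at 1496 against 644 CPM in control and at 1993 against 1159 CPM in tumor, log2 ratios of 1.22 (1.18 to 1.25) and 0.78 (0.76 to 0.81). *Atf3*, a repressor induced by stress, stood at 833 against 445 CPM and at 967 against 465 CPM. *Junb*, which the study also names, stood at 1095 against 811 CPM and at 1903 against 1576 CPM, log2 ratios of 0.43 and 0.27. The family of *Jun* thus ran from little difference to more than 2-fold.

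Chaperones outside the score followed one by one and not as families. In the HSP70 family 1 of 10 compared genes was higher in both libraries, *Hsph1* (ENSMUSG00000029657, chr5:149614287-149636376, minus strand), an HSP110 that exchanges the nucleotide of HSP70. It stood at 121 against 31.9 CPM in control and at 153 against 42.8 CPM in tumor, log2 ratios of 1.92 (1.77 to 2.06) and 1.84 (1.74 to 1.94). The constitutive *Hspa8* stood at 2251 against 1551 CPM and at 2651 against 1637 CPM, under the 1.5-fold limit in control and over it in tumor, and 24.1% of the possible reads at its 3′ end are shared with pseudogenes. *Hspa5*, the HSP70 of the endoplasmic reticulum, had log2 ratios of 0.23 and 0.13. *Hspb1*, a small HSP, was too low to be compared, at 8.38 against 1.49 CPM in control and at 8.23 against 2.17 CPM in tumor.

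The HSP40 partners of HSP70 gave 2 of 12, *Dnaja1* and *Dnajb1*. *Dnaja1* stood at 597 against 255 CPM in control and at 700 against 267 CPM in tumor, and *Dnajb1* at 87.3 against 44.8 CPM and at 101 against 40.3 CPM. *Bag3*, which links HSP70 to selective autophagy, was the only one of 9 small HSPs, mitochondrial chaperonins and exchange factors higher in both, at 79.7 against 46.4 CPM and at 108 against 48.9 CPM. The mitochondrial pair *Hspd1* and *Hspe1* had log2 ratios from 0.45 to 0.57, under the 1.5-fold limit. None of 11 HSP90 genes and co-chaperones besides *Hsp90aa1*, none of 8 subunits of the CCT chaperonin and none of 19 ubiquitin and proteasome genes was higher in both libraries, which is near the background of 0.976% for lists of this size. *Hsp90ab1*, the constitutive HSP90, was nearest among the HSP90 genes, with log2 ratios of 0.36 and 0.53.

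**Figure D3:**
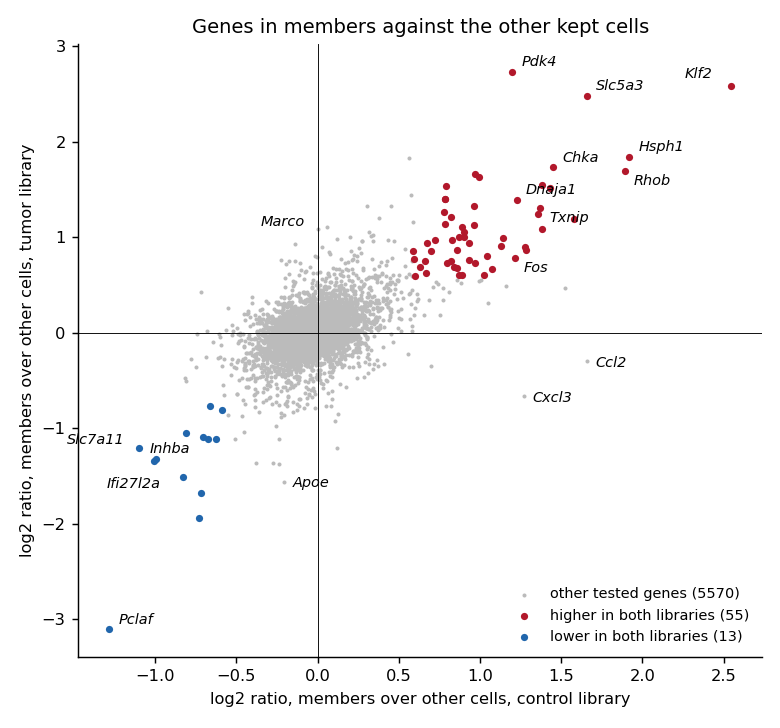
Log2 ratio of members over other kept cells in the control (horizontal) and tumor library (vertical) for 5638 compared genes, with 55 genes higher in both (red), 13 lower in both (blue) and the others in grey. *Klf2* stands alone at upper right at 2.55 and 2.59, *Pclaf* at lower left at −1.28 and −3.10, and *Cxcl3* at 1.27 and −0.67 is the 1 gene past the limit in opposite directions.

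Several of the highest ratios belonged to metabolic and transport genes. *Txnip*, a thioredoxin-binding brake on glucose uptake, stood at 354 against 137 CPM in control and at 410 against 166 CPM in tumor. *Pdk4*, which keeps pyruvate out of the mitochondrion, stood at 64.2 against 28.0 CPM in control and at 67.5 against 10.2 CPM in tumor. The members of both libraries stood within 0.07 (−0.14 to 0.29) of each other on the log2 scale, and the other cells 1.46 apart. Its log2 ratio was 1.20 (1.001 to 1.39) in control and 2.73 (2.56 to 2.90) in tumor. *Slc5a3*, an inositol transporter, stood at 220 against 69.9 CPM and at 155 against 27.9 CPM. It overlaps *Mrps6* on chromosome 16, which was higher too with log2 ratios of 0.82 and 1.21, so reads of these 2 genes may have been split between them. *Chka*, choline kinase, had log2 ratios of 1.45 and 1.73, and *Rnd3* of 1.38 and 1.55.

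Lists of other stress programs held from 1 to 3 genes that were higher in both libraries, against 0.976% of all compared genes. The list medians stayed near 0 on the log2 scale. They were 0.05 in control and 0.08 in tumor for the endoplasmic reticulum and integrated stress list, and −0.13 and 0.08 for p53 targets. For the oxidative stress list they were −0.19 and −0.10. Of 18 compared genes of the endoplasmic reticulum and integrated stress responses, *Ppp1r15a*, which restores translation after stress, was higher in both at 110 against 45 CPM in control and 133 against 72.8 CPM in tumor. *Ddit3*, the CHOP transcription factor, had log2 ratios of 0.77 and 0.47. Of 9 genes known as p53 targets, *Pmaip1*, *Gadd45g* and *Btg2* were higher in both, while *Cdkn1a*, a cell cycle inhibitor, and *Mdm2*, the ubiquitin ligase of p53, had log2 ratios between −0.13 and −0.06. *Pmaip1*, a pro-apoptotic BH3-only gene, stood at 42.1 against 15.7 CPM and at 66.8 against 23.3 CPM. Metallothioneins and oxidative stress genes had 1 gene of 15 higher in both, *Txnip*, and 1 lower, *Slc7a11*, where 0.231% of all compared genes were lower in both. *Btg2* among the p53 targets was also counted with the early response genes above.

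Ranked by the library ratio nearer to 1, *Slc7a11* had the largest deficit among genes with at least 50 CPM. It imports cystine for glutathione synthesis. It stood at 98.5 CPM in control members and 211 CPM in the other control cells, and at 101 and 232 CPM in the tumor library, log2 ratios of −1.10 (−1.25 to −0.96) and −1.20 (−1.31 to −1.10). Its level fell along the score in both libraries. In the lowest decile of the score it was at 290 CPM in control and 269 CPM in tumor, and in decile 9 at 114 and 137 CPM.

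Genes of dividing cells were among the 13 lower in both. *Mki67* stood at 40.6 against 66.9 CPM in control and at 10.1 against 32.5 CPM in tumor, *Top2a* at 34.0 against 56.4 CPM and at 7.39 against 28.3 CPM, and *Stmn1*, a tubulin-binding protein, at 133 against 212 CPM and at 52.7 against 114 CPM. *Pclaf*, a replication clamp partner, stood at 19.3 against 46.9 CPM in control and at 2.62 against 22.5 CPM in tumor. For *Mki67*, *Top2a*, *Stmn1* and *Pclaf* the control ratio turned above 1 when the highest 20% of cells were taken, with log2 values from 0.09 to 0.30, so the control deficit depended on the limit. Along the score *Stmn1* rose and then fell in both libraries. In control it was at 113 CPM in decile 1, 334 CPM in decile 8 and 133 CPM in members, and in tumor at 47.4, 177 and 52.7 CPM. The members thus stood near the lowest decile for this gene. None of 7 compared S phase genes was lower in either library, near the shares of 0.497% and 1.47% of all compared genes. *Fdps* of cholesterol synthesis, *Crem*, *Mfge8* and *Ptafr* made up part of the rest.

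**Figure D4:**
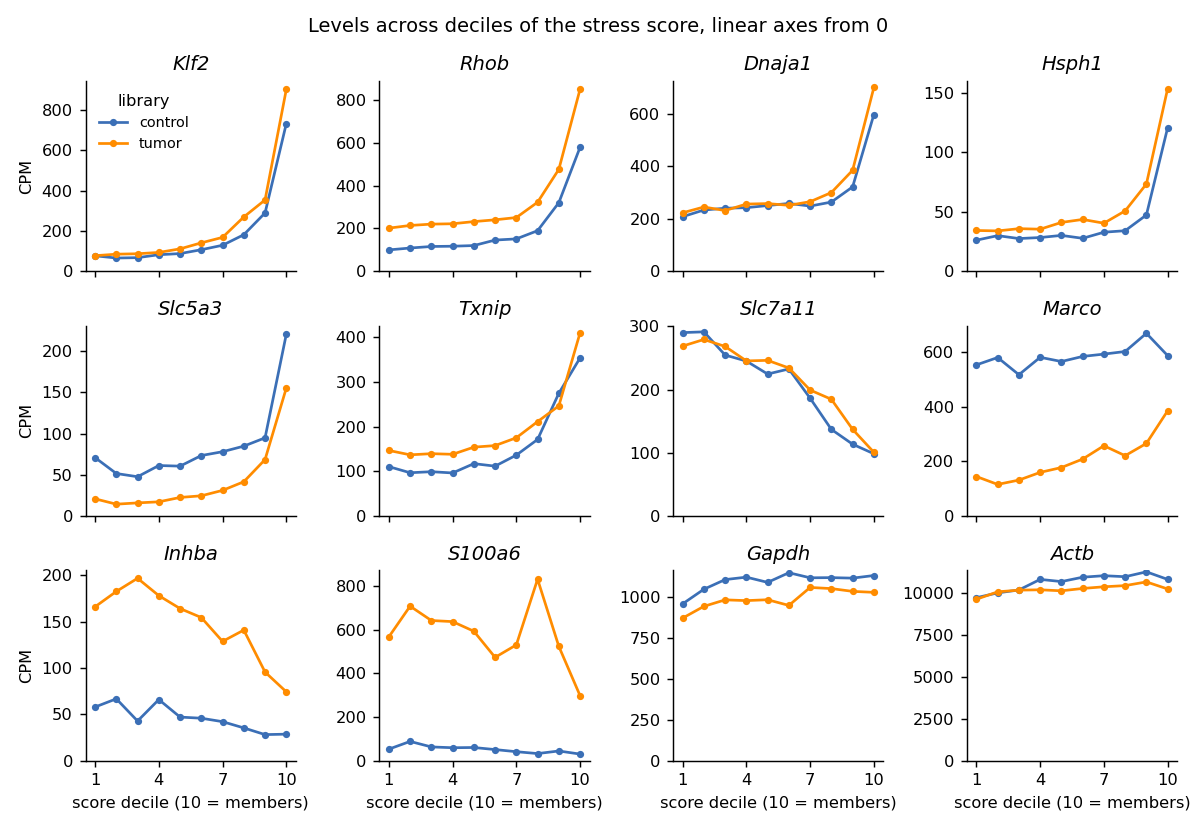
Level in CPM (linear axes from 0) of 12 genes in each decile of the score over all kept cells, from 1 (lowest) to 10 (the members), in the control (blue) and tumor (orange) library. *Klf2*, *Rhob*, *Dnaja1*, *Hsph1* and *Slc5a3* turn up sharply in the last 2 deciles, *Slc7a11* declines across the range in both libraries, and *Gapdh* and *Actb* stay nearly flat.

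*Inhba* (ENSMUSG00000041324, chr13:16011851-16031621, plus strand), the activin A subunit that the study follows, was low in these cells. It stood at 28.7 CPM in control members (23.6 to 34.5) against 46.7 CPM in the other control cells, and at 74.3 CPM in tumor members (68.6 to 80.4) against 158 CPM in the other tumor cells, log2 ratios of −0.70 (−0.99 to −0.43) and −1.09 (−1.21 to −0.97). In control, 350 of 380 members had no *Inhba* UMI, 92.1% (88.9 to 94.6). Of the other control cells 89.4% (88.6 to 90.2) had none, so these intervals overlapped. In tumor 81.7% of members and 70.3% of the other cells had none. Decile 9 of the score stood at 28.2 CPM in control and at 95.6 CPM in tumor, so the control deficit was not particular to members. Tumor members still carried more *Inhba* than control members, a log2 ratio of 1.37 (1.08 to 1.68), against 1.76 (1.70 to 1.82) among the other cells. The macrophage genes that marked the tumor library were low in tumor members as a group, with 8 of 10 at least 1.5-fold lower and none higher. *Apoe*, an apolipoprotein, stood at 222 against 655 CPM in tumor members and other tumor cells, *Il1b* at 319 against 738 CPM, *Spp1* at 1030 against 2657 CPM and *S100a6*, a calcium-binding protein, at 298 against 617 CPM. That list was picked from these libraries, so its count is a description.

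*Marco*, the scavenger receptor of AMs, went the other way in the tumor library alone. It stood at 587 CPM in control members and 585 CPM in the other control cells, but at 385 and 182 CPM in the tumor library, log2 ratios of 0.00 (−0.06 to 0.07) and 1.08 (1.02 to 1.14). *Fabp1*, a fatty acid-binding protein, stood at 274 against 110 CPM in tumor, a log2 ratio of 1.32, and at 688 against 504 CPM in control, a log2 ratio of 0.45. *Ly6e* and *Cd14* were lower in tumor members, with log2 ratios of −0.61 and −1.37, against 0.09 and −0.38 in control. For *Inhba*, *Apoe*, *S100a6*, *Marco* and *Fabp1*, tumor members stood nearer to the level of the control cells than the other tumor cells did.

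Within the tumor library the members were spread unevenly over cells with and without these transcripts. Among 3264 tumor cells with at least 4 UMIs of *Apoe* and *S100a6* per 10000, 211 were members, 6.46% (5.65 to 7.36), against 794 of 4402 tumor cells under that limit, 18.04% (16.9 to 19.2). In the control library the shares were 4.22% (2.32 to 6.97) of 332 cells and 6.25% (5.65 to 6.90) of 5853 cells. This limit was chosen after the data were seen. In cells under it, tumor members still had less *Inhba* than other tumor cells (80.0 against 169 CPM, a log2 ratio of −1.08), whereas the ratio of *Marco* shrank from 1.08 to 0.50. *Klf2* had log2 ratios of 2.54 in control and 2.57 in tumor there, and *Slc7a11* of −1.13 and −1.20.

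Inflammatory genes divided by library. Of 24 compared genes of NF-kB feedback and cytokines, 8 were higher and none lower in control members, whereas 2 were higher and 4 lower in tumor members, with list medians of 0.25 and −0.25 on the log2 scale. Among all compared genes 1.4% were higher and 0.497% lower in control members, and 2.55% and 1.47% in tumor members. The absence of lower genes in control is thus near the background. *Tnf* and *Nfkbid*, an atypical inhibitor of NF-kB, were higher in both, *Tnf* at 134 against 83.9 CPM in control and at 138 against 71.9 CPM in tumor. *Ccl2*, a monocyte chemoattractant, stood at 54.6 against 17.3 CPM in control and at 21.6 against 26.6 CPM in tumor, log2 ratios of 1.66 (1.44 to 1.87) and −0.30 (−0.53 to −0.08). The tumor ratio of *Ccl2* turned to 0.28 (0.014 to 0.54) in cells under the *Apoe* and *S100a6* limit, at 23.5 against 19.4 CPM, so its opposite direction was lost there. *Cxcl3*, a neutrophil chemoattractant, stood at 23.1 against 9.59 CPM and at 20.6 against 32.8 CPM, and its tumor ratio under the same limit was −0.89 (−1.15 to −0.65). Between the libraries *Ccl2* moved more in members, from 54.6 CPM in control to 21.6 CPM in tumor, than in the other cells, from 17.3 to 26.6 CPM. *Cxcl3* moved more in the other cells, from 9.59 to 32.8 CPM, than in members, at 23.1 and 20.6 CPM. The difference between libraries was not tested.

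Tumor members were then set against control members directly, over 5964 genes with at least 20 CPM in either. At least 2-fold, 56 genes were higher in tumor members (0.939%) and 30 were lower (0.503%), with a median log2 ratio of 0.02 over all compared genes. The largest excess was that of *Apoe*, at 222 against 22.3 CPM, a log2 ratio of 3.31 (3.01 to 3.64), and the same ratio among the other cells was 4.67 (4.60 to 4.74). *S100a6*, *Ifi27l2a*, an interferon-inducible gene, and *S100a4* followed with 3.28, 3.20 and 2.54, against 3.52, 3.87 and 2.87 among the other cells. *Pdpn*, *Gng12*, *Osm*, *Inhba*, *Cxcl1* and *Crip1* completed the 10 highest, with log2 ratios from 1.31 to 1.71. For all 10 genes the ratio was smaller in members than in the other cells, with overlapping counting intervals for *S100a6*, *S100a4*, *Gng12* and *Cxcl1*.

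The lowest ratio was that of *Epcam*, an adhesion molecule mostly known from epithelia, at 6.44 CPM in tumor against 66.5 CPM in control members, a log2 ratio of −3.37 (−3.82 to −2.94) against −3.69 (−3.88 to −3.50) among the other cells, so that the intervals overlapped. All 9 epithelial markers summed to 104 CPM in control and 61.9 CPM in tumor members, and *Sftpc*, the defining surfactant gene of alveolar epithelium, stood at 12.4 and 13.7 CPM. *Gal*, *Igflr1*, *Syne2* and *Cpne5* had log2 ratios between −1.99 and −1.01, and each was lower still among the other cells, with overlapping intervals for *Gal*. *Fabp1* stood at 688 and 274 CPM in control and tumor members, a log2 ratio of −1.33 against −2.20 among the other cells.

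A few genes had a lower ratio in members than outside them. *Cd74*, the invariant chain of MHC class II, stood at 476 CPM in control and 197 CPM in tumor members, a log2 ratio of −1.28 (−1.37 to −1.18), against −0.24 (−0.26 to −0.21) among the other cells. The MHC class II genes as a list, 6 compared, had a median of −0.74 in members, and *H2-Ab1* stood at 115 and 62.8 CPM. *Mmp12*, a macrophage elastase, had −1.71 in members and −0.99 outside, and *Stmn1* −1.34 and −0.90. No compared gene of the HSP70, HSP90, HSP40 and CCT lists passed 2-fold between tumor and control members, which at shares of 0.939% and 0.503% of all compared genes is near the background. *Hsph1* and *Dnaja1* had log2 ratios of 0.35 and 0.23.

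The score joins heat shock and early response genes, and members differed in which of them dominated. Each part was divided by its mean over all kept cells. The means were 9.81 UMIs per 10000 for *Hspa1a*, *Hspa1b* and *Hsp90aa1* together, and 5.01 for *Jun* and *Egr1*. Members whose scaled heat shock part was the larger made up 56.2% (53.5 to 58.8) of all, 42.9% (37.9 to 48.0) in control and 61.2% (58.1 to 64.2) in tumor. Before this scaling the median member carried 30.9 heat shock and 21.7 early response UMIs per 10000 in control, and 44.1 and 20.7 in tumor. These are values of the genes that chose the members, and they are given as a description. Few members lacked either part, with 26 at 0 for *Jun* and *Egr1* and 8 at 0 for the heat shock genes. The highest 10% of cells by the heat shock genes alone and the highest 10% by *Jun* and *Egr1* alone shared 764 cells, 55.2% of each. Across the 13851 kept cells the Spearman correlation of *Hspa1a* with *Jun* was 0.42, and across the 1385 members 0.06. Both describe cells that share a library and a depth, and the second is bounded by the choice on their sum.

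**Figure D5:**
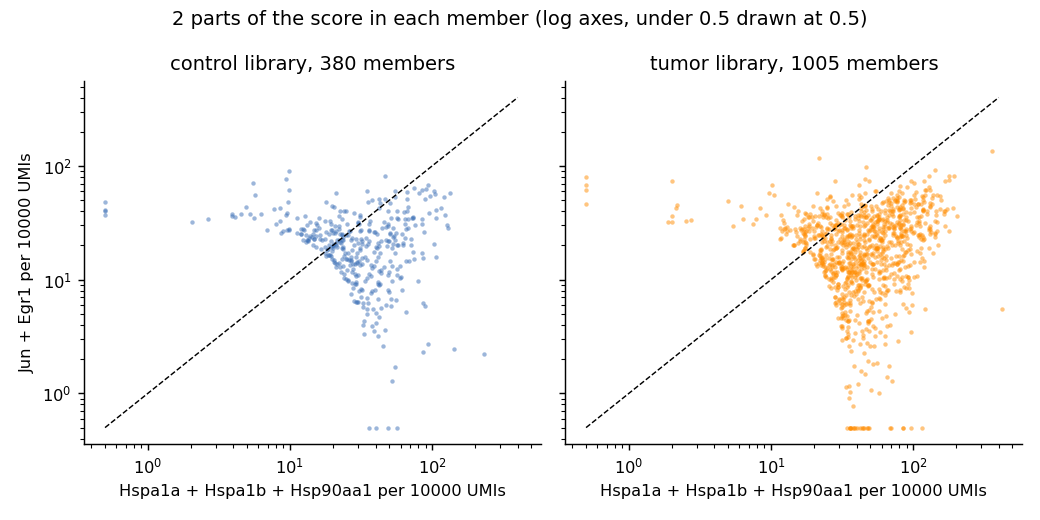
Heat shock part (horizontal, UMIs of *Hspa1a*, *Hspa1b* and *Hsp90aa1* per 10000) and early response part (vertical, *Jun* and *Egr1* per 10000) of the score in each member on log axes, for 380 control (left) and 1005 tumor members (right). The dashed line marks equal parts in UMIs per 10000. It is not the limit behind the shares of 42.9% of control and 61.2% of tumor members. For those, each part was first divided by its mean over all kept cells. The empty lower left corner is cut by the score limit.

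Genes that the score did not use also differed between members led by heat shock and members led by early response genes. *Hsph1* stood at 143 CPM in heat shock-led and 103 CPM in early-led control members, and at 167 and 131 CPM in tumor members. *Bag3* stood at 96.6 and 66.4 CPM in control and at 121 and 85.4 CPM in tumor. *Ccl4*, a chemokine, had the largest ratio toward the heat shock-led members, at 92.5 and 48.2 CPM in control and at 169 and 69.3 CPM in tumor, log2 ratios of 0.94 (0.58 to 1.31) and 1.28 (1.07 to 1.502). *Nfkbiz*, a nuclear co-regulator of NF-kB, had the largest ratio toward the early-led members by the lesser of its values in both libraries, at 39.7 and 61.4 CPM in control and at 67.0 and 114 CPM in tumor. *Cxcl2*, a neutrophil chemoattractant, stood at 955 and 1250 CPM in control and at 1025 and 1300 CPM in tumor. These genes were named as the leading ones after their values were seen.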

How the data were processed

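Sorted AMs of a control and a tumor condition were measured, 1 library each. The authors deposited raw UMI counts per gene and barcode for 32285 genes, and symbols were found for 32158 of them. The submitters' processing notes name bcl2fastq 2.20, Cell Ranger 4.0.0 and the build mm10; the methods of the paper name another Cell Ranger version.

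From the deposited counts, kept cells, scores and members were taken as described above, and UMIs were summed over cells of a library and scaled to 1000000. Kept cells held 64850143 UMIs in the control and 68801889 in the tumor library. Intervals at 95% were exact Poisson for levels, conditional binomial for ratios and Clopper-Pearson for shares. Genes were called past a fold of 1.5 between members and other cells, where the level reached 20 CPM in each library, and past 2 between tumor and control members. No count model was fitted. Doublets were not removed in the main choice, since the automatic Scrublet limit called 0 cells in each library.

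The members and gene lists were chosen with earlier results of these data known. The counts of 2 further lists are not reported here. The genes named are the score genes, *Klf2*, genes of the lists, and the 10 highest and 10 lowest ratios of each comparison at 50 CPM or more, ribosomal and mitochondrial genes left out. Alternatives changed the filters, the limit, the score genes, doublets, thinning, scaling, minimum level, fold, cells of other types and depth weights. On simulated counts with 200 genes changed 2-fold, the intervals of members over others held the true ratio for 95.7% of 5727 genes in the control library. The simulated counts were Poisson draws around summed totals, which is what the intervals assume. Variation among cells was not simulated, so this value checks the computation and not the fit of the intervals to these data. Python 3.11.15 was used with numpy 2.4.6, scipy 1.17.1, pandas 2.3.3, scanpy 1.11.5 and matplotlib 3.10.9.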

Additional observations from a re-analysis of the deposited data

Results flagged for a closer look

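*Cxcl3* was flagged because its members and other cells differed in opposite directions in the 2 libraries, with a log2 ratio of 1.27 in control and −0.67 in tumor; the difference between libraries was not tested. Barcodes left out for over 10% mitochondrial UMIs were flagged because they carried the score genes too. In the control library 977 such barcodes with 2629 UMIs of the 5 genes stood at 1340 CPM (1290 to 1393), against 1215 CPM (1206 to 1223) in kept cells. In the tumor library 764 such barcodes with 2375 UMIs stood at 1742 CPM (1673 to 1814), against 1622 CPM (1612 to 1631) in kept cells. Their median depths were 1788 and 1602 UMIs.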

How the results depend on the processing

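No paired analysis was possible because each condition had 1 library and no test was run. The tumor share of members under equal weight, 68.1%, was 76.4% for the highest 5% of cells, 58.0% for the highest 20%, 71.0% with the heat shock genes alone and 60.0% with *Jun* and *Egr1* alone, and 74.3% under the *Apoe* and *S100a6* limit, which was added after the data were seen; choosing 10% within each library gives 50.03% by construction. The share of members with the larger scaled heat shock part, 56.2%, was 62.1%, 47.8% and 51.4% for the highest 5%, the highest 20% and the choice within each library. The 13 genes lower in both libraries became 26 and 7 for the highest 5% and 20%, and 8 without *Hsp90aa1*. The 30 genes lower in tumor than in control members became 47 for the highest 20% and 55 with *Jun* and *Egr1* alone, and the 56 higher ones became 29 under the *Apoe* and *S100a6* limit. With no minimum level the counts were 1186 higher and 300 lower in both, and 662 and 631 between tumor and control members, since more genes were counted; at 100 CPM they were 25, 2, 11 and 6, and with folds of 2 and 1.5 in place of 1.5 and 2 they were 13, 3, 207 and 117. Of the 55 genes higher in both, 37 were also called at the highest 20% and 50 at the highest 5%.

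In the control library *Areg* turned to −0.055 at the highest 5%. At the highest 20% *Mki67*, *Pclaf*, *Stmn1* and *Top2a* turned to 0.093, 0.19, 0.11 and 0.30, and with *Jun* and *Egr1* alone *Mki67*, *Stmn1* and *Top2a* turned to 0.36, 0.029 and 0.53. The cause was not tested. All other settings run (1000 genes, 5% mitochondrial UMIs, 277 control and 394 tumor cells with the highest Scrublet scores left out, thinning, other cell types left out, mean of cells' own CPM, division by the median ratio, depth weights) kept each count within 1.5-fold. Levels near 20 CPM rest on few UMIs: 91 UMIs of *Cxcl3* in control members.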

Other observations

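Further groups of genes, put together after the values were seen, are given here as values. Of 10 compared genes that glucocorticoids or FOXO factors are known to raise, 6 were higher in members of both libraries, *Txnip*, *Pdk4*, *Tsc22d3*, *Klf2*, *Dusp1* and *Cited2*, against 0.976% of all compared genes, and none was lower. As the list was put together with these values known, its count is a description and no sign of enrichment. *Klf2* and *Dusp1* were also counted with the early response genes. *Tsc22d3*, a leucine zipper protein induced by glucocorticoids, stood at 212 against 123 CPM in control and at 277 against 105 CPM in tumor. *Fkbp5*, another gene of that response, stood at 55.3 against 52.8 CPM and at 59.0 against 50.4 CPM. Of 7 genes known from osmotic stress only *Slc5a3* was higher in both, while *Slc6a6*, a taurine transporter, had log2 ratios of 0.00 and 0.11. *Rgs2*, a brake on G protein signals, stood at 337 against 153 CPM in control and at 516 against 259 CPM in tumor. Of 3 compared inhibitors of differentiation 2 were higher in both. *Id1* stood at 70.3 against 36.0 CPM in control and 66.3 against 30.5 CPM in tumor, and *Id3* at 21.3 against 8.18 CPM and at 34.3 against 16.1 CPM. *Id2*, the most abundant of them, stood at 196 against 131 CPM in control and at 369 against 365 CPM in tumor.

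*Cyp51*, a demethylase of cholesterol synthesis, stood at 72.3 against 116 CPM in tumor and at 51.3 against 63.1 CPM in control. *Fth1*, the heavy chain of ferritin, stood at 17353 against 26001 CPM in tumor and at 17522 against 20887 CPM in control.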
